A study of Mus musculus with 52 samples.

Results

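The 42 genes described here encode proteins that copy DNA and supply its nucleotides, and were taken as a fixed list of symbols. All 42 were found among the 28786 gene identifiers of the table, and they comprised 11 licensing genes, 6 origin firing genes, 18 fork genes, 5 nucleotide supply genes and 2 chromatin assembly genes. They were read out in 52 single bone marrow cells, each with its own library, made by Smart-seq2, a method that sequences full-length cDNA without molecular identifiers. The donors were C57BL/6 mice aged 6 to 8 weeks with the genotype Cd4-cre;R26Tdtomato, in which Cre recombinase expressed from Cd4 control sequences can switch on a tdTomato reporter. The only group is labelled primed HSCs (haematopoietic stem cells), taken from marrow of femora and tibiae after lysis of red cells with ammonium chloride. Neither the number of animals nor a sort gate is given in the sources used here, so the cells form 1 sample, no cell is a replicate, and no test or p-value is given.

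Before a cell can copy its genome, the origin recognition complex, Cdc6 and Cdt1 load the ring-shaped MCM helicase onto origins in G1, which is called licensing. At the G1/S boundary Cdc45 and the GINS complex join the helicase and activate it, and DNA polymerases, the sliding clamp PCNA and its loader then work at the fork. Ribonucleotide reductase and thymidylate enzymes make the deoxynucleotides, and E2F transcription factors switch on many of these genes before S phase, whereas mitotic genes such as cyclin B rise later, in G2. Adult HSCs are known to be mostly quiescent, while committed erythroid progenitors divide often.

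Reads below are the deposited estimated counts rounded to whole numbers, and CPM is reads scaled so that all cells have an equal total. The 49 cells with at least 50000 reads, at least 1000 genes and at most 20% mitochondrial reads were kept, with 85519 to 12446477 reads each (median 2187579). Clustered without the 42 genes, the mitotic list or the other replication genes, 30 cells were erythroid-like and 18 were HSC-like, and cell 34, with 51998 CPM of neutrophil and monocyte markers, stood alone. The label of primed HSCs thus did not match the markers of most cells: the 12 HSC markers summed to a median of 26.005 CPM (range 0 to 103) in the erythroid-like cells and 1739 CPM (371 to 3087) in the HSC-like cells, and Hoxb5 and Fgd5 were at 0 in all erythroid-like cells. The 12 erythroid markers summed to medians of 14785 CPM (7498 to 20970) and 3708 CPM (444 to 17115). Markers of other lineages were also higher in the HSC-like cells, at a median sum of 413 CPM (0 to 3004) against 2.67 CPM (0 to 377) for 6 megakaryocyte markers and 646.3 CPM (0 to 2879) against 6.72 CPM (0 to 280) for 10 neutrophil and monocyte markers, of which Csf1r, Elane, S100a8 and Ly6c2 were at 0 in all HSC-like cells. Their part in the class differences below was not tested. The mitotic genes Top2a and Mki67, and Tk1 of the 42 genes, were among the 10 leading genes of the erythroid-like cells. Cell 9, the shallowest, also held 7811 CPM of B lineage markers, and cells 9, 22 and 44 had under 150000 reads. Cells 6 and 13, erythroid-like and HSC-like by cluster, had the most similar levels of the 42 genes of all pairs of cells (Pearson correlation of log2(CPM + 1) 0.987, median over pairs 0.411), and 0.927 over genes of at least 5 CPM (median 0.430). Counts were also made without cells 9, 22 and 44, and without cells 9, 13, 23 and 34, a set taken over from an earlier analysis of these data; no value given here bears on leaving out cell 23.

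Most of the 42 genes were present in most cells. At least 10 CPM was reached in at least 50% of the kept cells by 39 of them, where 33.8% of the 15134 genes with a read did so. The 3 others were Orc1, the largest subunit of the origin recognition complex (11 cells, 22.4%, exact Clopper-Pearson 95% interval 11.8 to 36.6), the GINS subunit gene Gins3 (12 cells, 24.5%, 13.3 to 38.9) and Pole2, a subunit of the leading strand polymerase (22 cells, 44.9%, 30.7 to 59.8). Such intervals cover only the error of counting cells, and reads copied by PCR are not separate molecules. Per cell, a median of 33 of the 42 genes reached 10 CPM, from 3 in cell 34 to all 42 in erythroid-like cells 4, 19 and 48. In cell 34 these 3 were Mcm3 (13.3 CPM), Mcm4 (197 CPM) and Pold2 (297 CPM). Summed over the 42 genes, the cells held 567 to 19808 CPM, with a median of 6686.

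**Figure D1:**
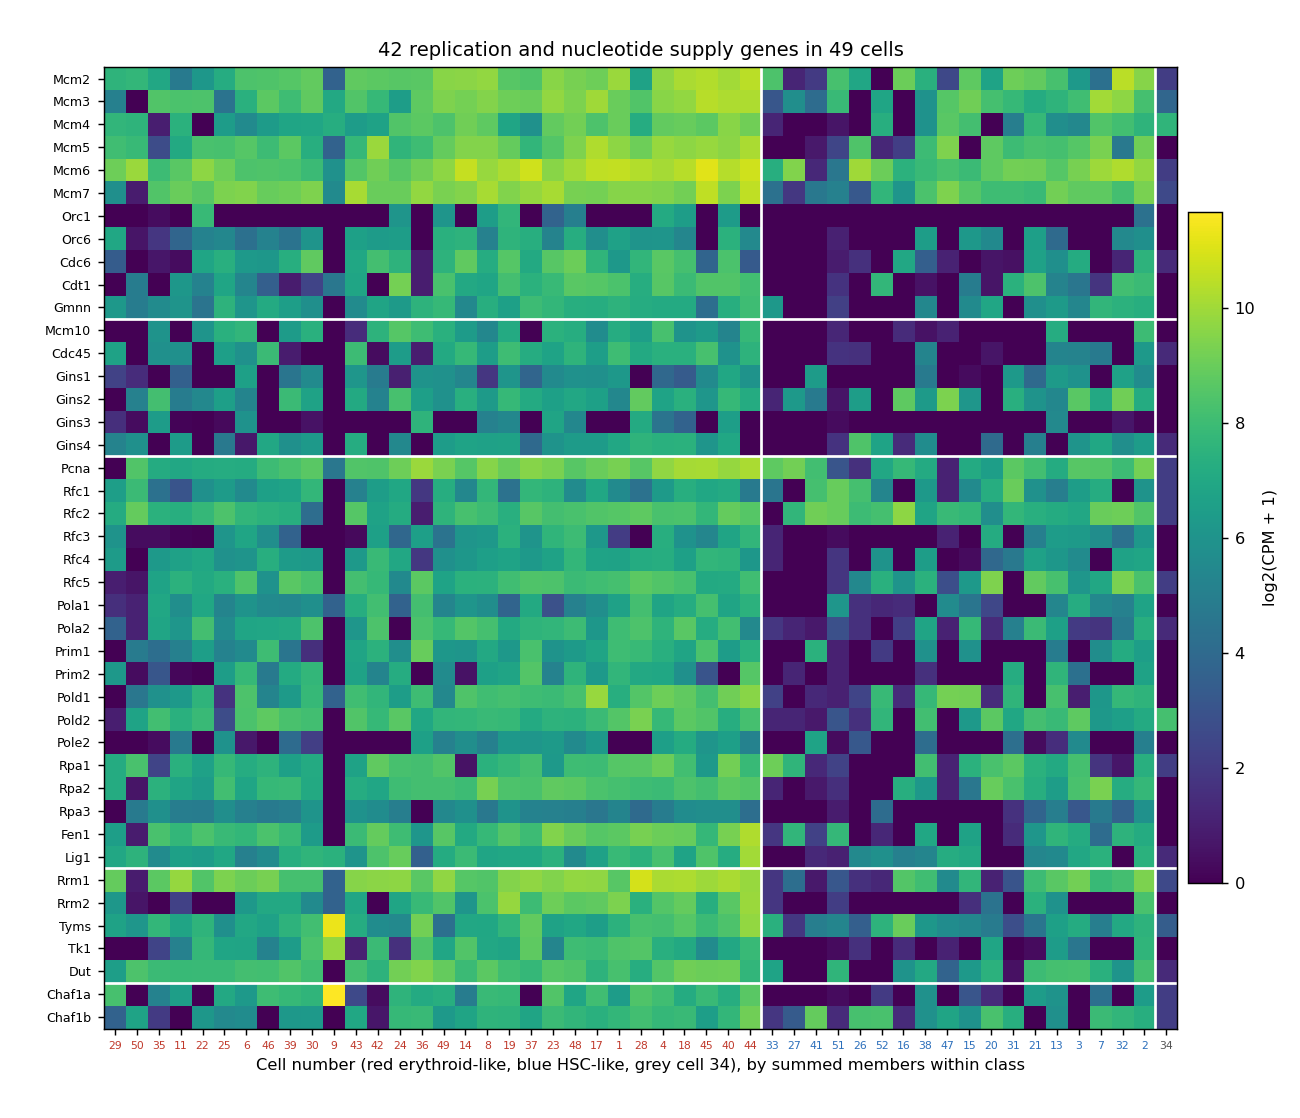
Levels of the 42 genes (rows, in the order licensing, firing, fork, nucleotide supply and chromatin assembly, split by white lines) in the 49 kept cells (columns, ordered by summed level within each class), as log2(CPM + 1). The erythroid-like cells on the left are filled for nearly all genes, the HSC-like cells have many genes at 0, Orc1 is at 0 in most cells of either class, and Chaf1a and Tyms are brightest in cell 9.

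The licensing genes held the largest share of these reads, a median of 39.8% of the summed CPM per cell. Mcm6 and Mcm7, subunits of the helicase ring, had reads in all 49 cells. Mcm6 ranged from 1.502 CPM through a median of 566 to 2250 CPM in cell 45, and Mcm7 from 0.877 through 516 to 1474 CPM, also highest in cell 45. Although the 6 subunits Mcm2 to Mcm7 sit in 1 ring in equal number, their transcripts were not equally abundant. Per kilobase of transcript Mcm6 averaged 252 ± 182 CPM (SD over 49 cells, here and below) and Mcm7 172 ± 124, whereas Mcm3 averaged 136 ± 118, Mcm2 130 ± 114, Mcm5 115 ± 97.4 and Mcm4 60.8 ± 55.6. Mcm6 was the highest of the 6 per kilobase in 25 cells and Mcm7 in 16. In how many cells the full order of the means held was not counted. All 6 subunit genes reached 10 CPM together in 35 cells, of which 27 were erythroid-like and 8 HSC-like. Mcm7 shares exonic sequence with Ap4m1 and Cops6 on the opposite strand and hosts Mir25 and Mir93, and since the strand setting of the counting is not given, reads of such partners cannot be told apart. The same limit applies to Cdc45, Chaf1a, Fen1, Gins2, Lig1, Orc1, Orc6, Rfc2, Rfc4, Rfc5 and Tk1, and Pole2 and Rpa1 overlap an unnamed gene model on their own strand.

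The loading factors were found less widely than the ring. Cdc6, the ATPase that recruits the ring, ranged from 0 through a median of 72.5 to 526.2 CPM and reached 10 CPM in 29 cells. Cdt1, its partner in loading, ranged from 0 through 38.4 to 594 CPM and reached 10 CPM in 32. Orc6, a small subunit of the recognition complex, did so in 32 cells at 51.1 ± 56.5 CPM, and Orc1, in 11 cells, averaged 20.97 ± 50.8 CPM. Gmnn encodes geminin, which binds Cdt1 and blocks a renewed round of loading once S phase has begun. It reached 10 CPM in 39 cells, with Cdt1 in 29 of them and without it in 10. Cdt1 without Gmnn was found in 3 cells, and 7 cells had neither.

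Of the 6 firing genes, Gins2 was found most widely, in 41 cells at 134 ± 149 CPM. Mcm10, a scaffold that helps to open the loaded helicase, reached 10 CPM in 25 cells at 76.3 ± 97.7 CPM, and Cdc45, the helicase cofactor, in 28 cells at 75.6 ± 89.8 CPM. The GINS complex has 4 different subunits, yet all 4 genes reached 10 CPM together in only 5 cells. Gins1 did so in 27 cells, Gins4 in 32 and Gins3 in 12. Per kilobase the median firing gene stood at 31.4 CPM, against 82.03 for the licensing and 52.6 for the fork genes.

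Among the fork genes, Pcna, the clamp that tethers polymerases to DNA, was the highest of all 42 genes per kilobase, at 260 CPM. Its CPM ranged from 0 through 361 to 1139 and was highest in cell 44. Fen1, the nuclease that trims Okazaki fragments, averaged 237 ± 240 CPM, and Lig1, the ligase that joins them, 135 ± 169 CPM. The 5 clamp loader genes Rfc1 to Rfc5 reached 10 CPM together in 24 cells, and Rfc2 (45 cells, 261 ± 169 CPM) was the most widespread of them. All 3 genes of the single-strand binding protein RPA did so in 27 cells, and the 4 genes of the polymerase alpha and primase complex, which starts each new strand (Pola1, Pola2, Prim1 and Prim2), in 19. Prim2 was the least widespread of these 4, in 25 cells. Pold1 and Pold2, subunits of the lagging strand polymerase, averaged 210 ± 217 and 205 ± 149 CPM.

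Of the nucleotide supply genes, Tyms, thymidylate synthase, reached 10 CPM in 46 cells, Dut, which removes dUTP, in 42 and Rrm1, the large subunit of ribonucleotide reductase, in 40. Rrm2, the small subunit that is known to be made mainly in S phase, reached 10 CPM in 28 cells, and Tk1, the salvage enzyme thymidine kinase, in 29. Rrm1 ranged from 0.751 through 407 to 1893 CPM and Rrm2 from 0 through 59.8 to 971 CPM. Both reductase genes reached 10 CPM in 27 cells, and Rrm1 alone did so in 13, of which 5 were erythroid-like and 8 HSC-like. Tyms is uncertain in level, because its estimate was not a whole number in 96.2% of the 52 cells, as happens where a model shares reads among similar sequences. This was also so for Pola2 in 63.5% of cells, Gins2 in 59.6%, Rfc1 in 53.8% and Chaf1a in 42.3%.

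Chaf1a and Chaf1b encode subunits of CAF-1, which places histones on new DNA behind the fork. Chaf1a ranged from 0 through 75.5 to 3227 CPM, and the highest value, 276 reads in cell 9, was far above the next one of 406 CPM. Chaf1b ranged from 0 through 111 to 556 CPM. Cell 9 also held the highest Tyms (2573 CPM, 220 reads) and Tk1 (889 CPM, 76 reads), while its firing genes were all at 0 reads and its fork genes summed to 222 CPM, the lowest of all cells. In this cell 1 read stands for 11.7 CPM, so a gene with a single read passes the 10 CPM mark.

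The genes were higher in the erythroid-like than in the HSC-like cells, most of all the nucleotide supply group. Summed nucleotide CPM had a median of 1647 (407 to 3485) in the 30 erythroid-like cells and 334 (13.7 to 1644) in the 18 HSC-like cells, of which 8 lay within the erythroid-like range. Licensing genes summed to medians of 3488 (433 to 8151) and 1846 CPM (46.6 to 4567), and fork genes to 3155 (222 to 6897) and 1825 CPM (658 to 3093). Firing genes summed to 499 (0 to 1025) and 219 CPM (1.28 to 715). For all 42 genes the medians were 10187 CPM (3669 to 19808) and 4362 CPM (1897 to 9512), and although the ranges overlapped, 16 erythroid-like cells lay above every HSC-like cell and 7 HSC-like cells below every erythroid-like cell. The classes also differ in depth, with medians of 2993790 and 1192450 reads. With every cell thinned to 85519 reads, a median of 38 of the 42 genes had a read in erythroid-like cells (39 unthinned) and 21.5 in HSC-like cells (30 unthinned).

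**Figure D2:**
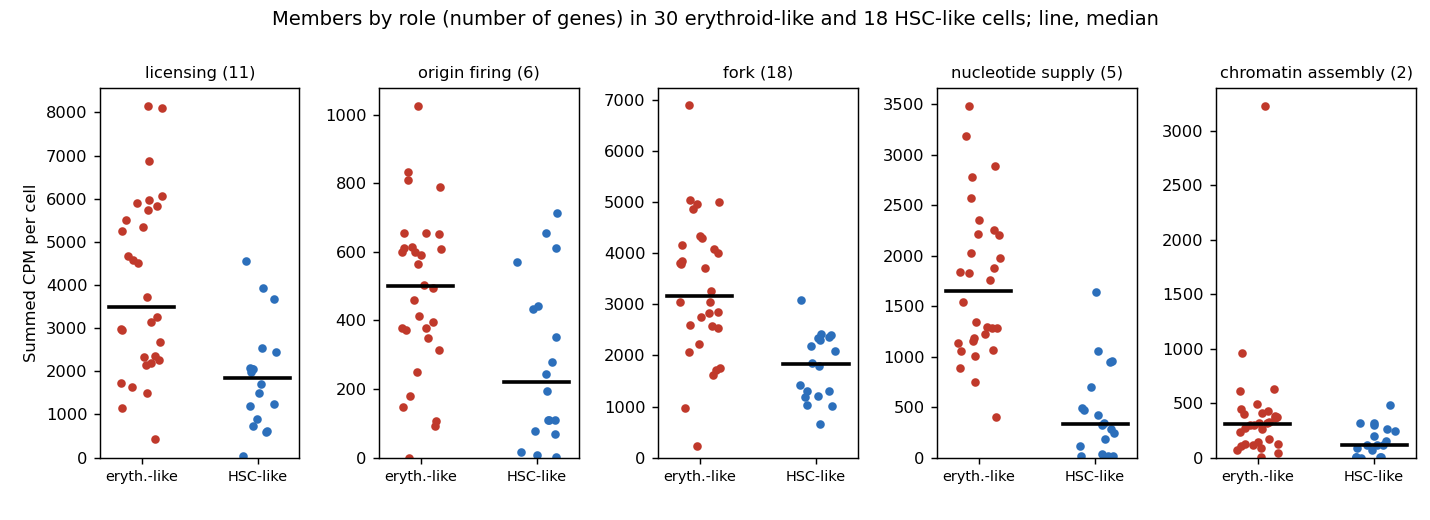
Summed CPM per cell of each role group (panels, with the number of genes in brackets; y axes start at 0 and differ between panels) in the 30 erythroid-like and 18 HSC-like cells, with 1 point per cell and the median as a line. As a ratio the medians differ most for nucleotide supply (1647 and 334 CPM), the ranges overlap in every panel, and the highest chromatin assembly point is cell 9.

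Gene by gene, 27 of the 42 had a mean CPM at least 2-fold higher in the erythroid-like cells, where 14.5% of the 9158 filtered genes (mean of 5 CPM or more, with reads in 10 cells or more) did so. None was 2-fold higher in the HSC-like cells, where 19.5% of the 9158 were. The median log2 ratio of erythroid-like to HSC-like mean CPM was 1.36 over the 42 genes and -0.02 over all 9158. The cells that define these classes are the cells compared, so the ratios describe the classes and carry no test. By role, 8 of 11 licensing, 3 of 6 firing, 10 of 18 fork, 5 of 5 nucleotide supply and 1 of 2 chromatin assembly genes passed 2-fold. These counts include the licensing gene Orc1 and the firing gene Gins3, whose HSC-like means rest on 1 cell each. All 42 genes passed the low value filter.

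Among the largest ratios were those of Cdc45, Mcm10 and the nucleotide supply genes Rrm2 and Tk1. The ratios of the helicase activator genes Gins1 (1.23), Gins2 (0.744) and Gins4 (1.45) were below 2-fold. Cdc45 averaged 116 ± 93.2 CPM over the erythroid-like cells and 12.1 ± 21.7 CPM over the others (9.58-fold). Cdc45 reached 10 CPM in 23 of the 30 and in 5 of the 18, and the HSC-like maximum of 77.0 CPM lay below the erythroid-like median of 98.8. Rrm2 averaged 249 ± 265 and 32.03 ± 82.2 CPM (7.79-fold), Tk1 185 ± 187 and 23.4 ± 53.5 CPM (7.89-fold) and Mcm10 111 ± 99.5 and 22.7 ± 67.7 CPM (4.88-fold). HSC-like levels of these 3 genes rested in good part on cell 2, and without that cell the ratios were 16.2, 13.9 and 12.2. With all cells kept, Cdc6 (5.12-fold, 179 ± 160 and 34.96 ± 60.7 CPM) lay just above Mcm10 and Fen1 (4.35-fold, 340.8 ± 250 and 78.3 ± 84.9 CPM) below it. Orc1 reached 10 CPM in 10 erythroid-like cells and in 1 HSC-like cell, cell 2, at 19.5 CPM, and Gins3 in 11 and in 1, cell 13. Without that cell each had under 1 CPM on average in the HSC-like cells, so no ratio is read from either. Chaf1a had a ratio of 14.7, which was 8.99 without cell 9 (162 ± 119 CPM in the other 29 erythroid-like cells against 18.02 ± 31.4), and Tyms 2.96, which was 2.16 without cell 9.

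The ring subunits and Pcna differed less. Mcm7 averaged 672 ± 349 and 270 ± 220 CPM (2.49-fold), but Mcm6 897 ± 560 and 503 ± 354 (1.78-fold) and Mcm2 528 ± 379 and 310 ± 357 (1.71-fold). HSC-like cell 32 had the highest Mcm2 of all cells, 1419 CPM. Near the 2-fold mark lay Gmnn (2.11) and Mcm5 (2.15) above, and Pcna (1.99) and Mcm3 (1.96) below. The call of 8 genes turned with 1 cell left out. Pcna passed without any 1 of 24 cells (up to 2.17 without cell 2) and Mcm3 without any 1 of 11 (up to 2.39 without cell 7). Mcm2 (2.16 without cell 32), Gins4 (2.26 without cell 26), Pold1 (2.15 without cell 47), Pold2 (2.15 without cell 3) and Rpa2 (2.14 without cell 7) also passed, and Gmnn fell below, at 1.997, without any 1 of 7 HSC-like cells. No such excess was seen for 4 genes: Rfc1 had a ratio of 0.724, Rfc2 of 0.851, Gins2 of 0.744 and Chaf1b of 0.989.

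**Figure D3:**
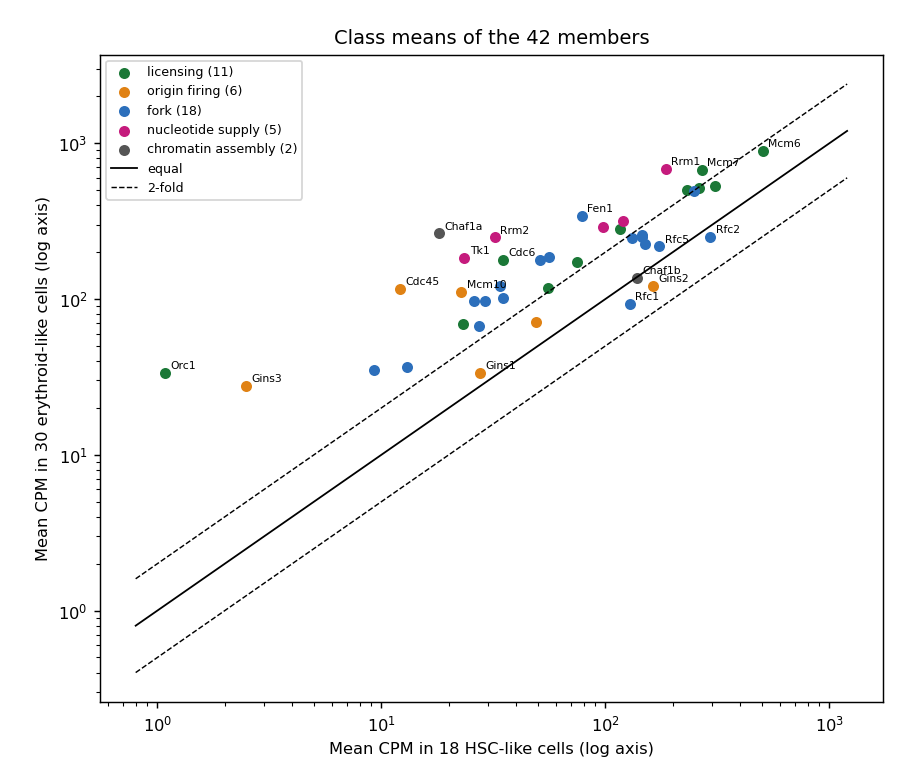
Mean CPM of each of the 42 genes in the 30 erythroid-like cells (y) against the 18 HSC-like cells (x), both on log axes, coloured by role, with lines of equality and of 2-fold difference. The 27 genes on or above the upper dashed line include all 5 nucleotide supply genes, 4 genes lie below equality, and Orc1 and Gins3 lie far left because 1 HSC-like cell each reached 10 CPM.

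Across the 49 cells the genes varied together. The mean Spearman correlation over the 861 pairs was 0.384, with 229 pairs (26.6%) at 0.5 or more and 14 below 0. No such share was computed for pairs of all filtered genes, so whether these values are unusual was not tested. Within the classes it was lower, 0.274 for the 30 erythroid-like cells and 0.217 for the 18 HSC-like ones. All these values are descriptions over cells of 1 sample, and cells share depth: the mean rank of the 42 genes correlated with total reads at 0.453 (0.193 within the erythroid-like cells). With the relation of ranks to depth removed, the mean over pairs was 0.331.

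Ring subunits moved together more closely than those of the 3 other complexes measured. Mcm2 to Mcm7 had a mean correlation of 0.591 over all cells, 0.608 within the erythroid-like cells and 0.360 within the HSC-like cells. The leading pairs were Mcm3 with Mcm7 (0.705) and Mcm5 with Mcm6 (0.695). Subunits of other complexes moved together much less over all cells, at 0.187 for Gins1 to Gins4, 0.182 for Rfc1 to Rfc5 and 0.317 for Rpa1 to Rpa3. Detection differed between these genes, with 10 CPM in 12 cells for Gins3, 40 for Mcm4 and Mcm5 and 45 for Rfc2, and its part was not tested. By role the means were 0.504 for licensing, 0.271 for firing, 0.344 for fork and 0.521 for nucleotide supply. The nucleotide value was 0.180 within the erythroid-like and 0.376 within the HSC-like cells. Among the strongest pairs, Fen1 with Rrm1 (0.818), Cdc45 with Rrm1 (0.752) and Gmnn with Rpa2 (0.714) joined different roles, while Rfc4 with Fen1 (0.745) are both fork genes.

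Each gene was also set against the mean rank of the other 41. Mcm7 followed them best (0.84), then Rrm1 and Rrm2 (0.81 each), Fen1 (0.80) and Cdc6 (0.76), and 32 of the 42 reached 0.5, where 5.5% of the 9158 genes did so against the mean rank of all 42. Rfc1 (0.15) and Rfc2 (0.23), the large and a small subunit of the clamp loader, followed them least, and Rfc1 with Tyms had the lowest pair value (-0.30). Within the erythroid-like cells 21 genes reached 0.5, led by Rrm2 (0.85), Pcna (0.84) and Mcm3 (0.83). The share of the 9158 genes that did so within these cells was not computed, and the 5.5% does not serve for it.

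**Figure D4:**
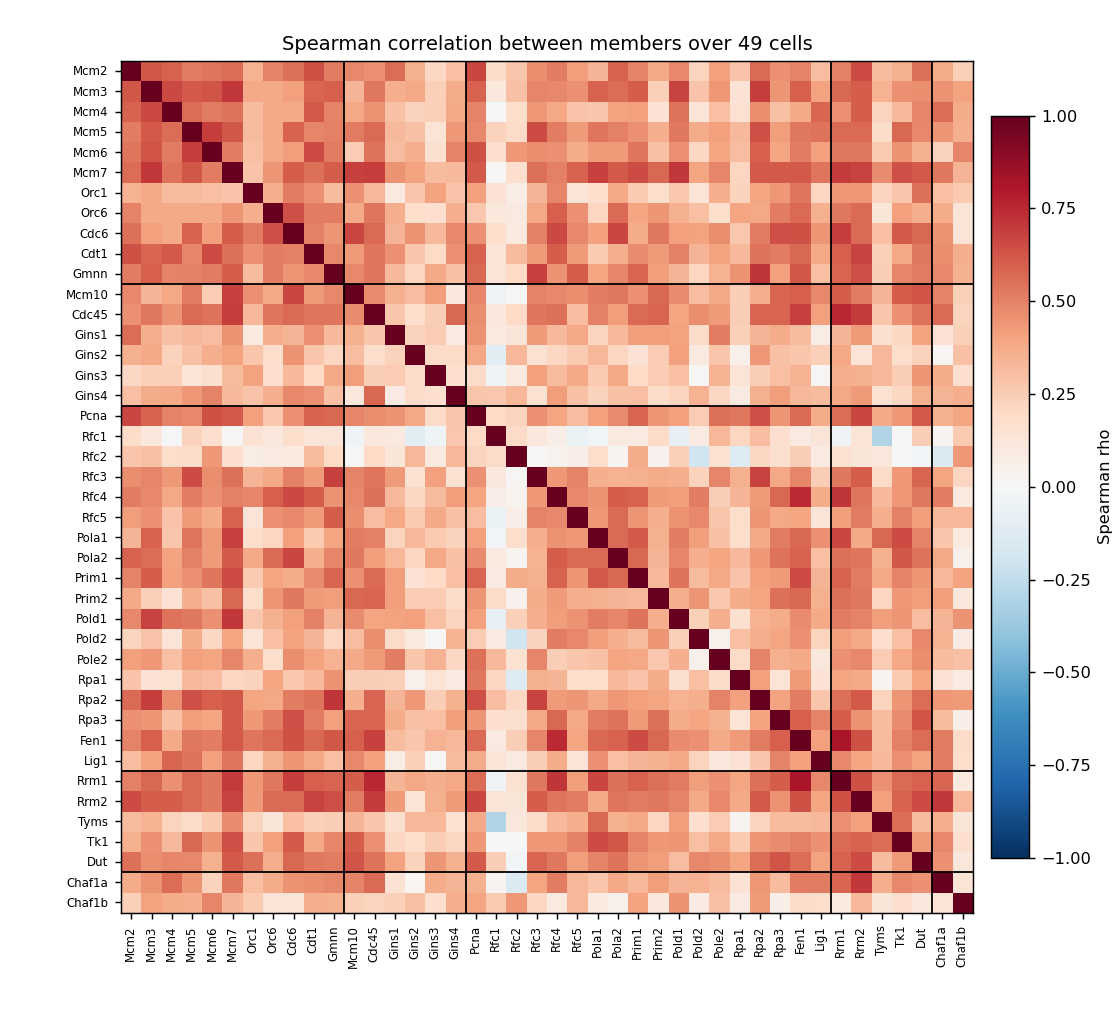
Spearman correlation of every pair of the 42 genes over the 49 kept cells, with genes in the order licensing, firing, fork, nucleotide supply and chromatin assembly (black lines). Most pairs are positive (median 0.396), the block of Mcm2 to Mcm7 at the upper left is among the darkest, and the rows of Rfc1 and Rfc2 are pale.

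Because the genes moved together, their promoters were searched for the E2F site. Promoter windows of 250 bases before to 50 after the transcription start (RefSeq, GRCm38.p6) were held for 35 of the 42 genes, in 40 windows. The words TTTCCCGC, TTTGGCGC, TTTCGCGC and TTTGCCGC were searched on either strand, and matches may overlap each other. At least 1 word was in 32.5% of these windows (13 genes), against 2.26% of all 32851 windows and 3.34% of the 11426 windows in the middle range of GC content of these genes. Licensing genes held most of them, with 7 of 9 genes (Mcm3, Mcm5, Mcm6, Mcm7, Cdc6, Cdt1 and Orc1). The fork genes had 5 of 16 (Rfc3, Pola1, Pold1, Pole2 and Lig1), the firing genes 1 of 3 (Gins3) and the nucleotide supply and chromatin assembly genes 0 of 7. In the mitotic list 0 of 19 genes held an E2F word, while the CHR word TTTGAA was in 15 of its 20 windows, against 12.5% for the replication genes and 17.9% of all windows. CCAAT was in 18 of the 20, 57.5% and 37.4%. Genes with an E2F word had a median correlation with the other 41 of 0.65 and the 22 without one 0.69, so holding a word did not go with closer co-variation here. A match is a string of letters, and neither binding nor use was measured. Only these exact words were searched, so a window without an E2F word may still hold a variant of the site.

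The 250 bases before the start are shown for Mcm5 (chr8:75109259-75109508, plus strand) and Mcm6 (chr1:128359706-128359955, minus strand), 2 ring genes in which E2F words of opposite strands overlap, and for Rrm1 (chr7:102441445-102441694, plus strand), which held none of the words and yet followed the other genes closely. Each is written 5′ to 3′ on the gene's strand, with E2F words in capitals. Counted from the start, the first bases of the matches lie at -153 and -149 in Mcm5 and at -110, -106 and -47 in Mcm6.
Mcm5: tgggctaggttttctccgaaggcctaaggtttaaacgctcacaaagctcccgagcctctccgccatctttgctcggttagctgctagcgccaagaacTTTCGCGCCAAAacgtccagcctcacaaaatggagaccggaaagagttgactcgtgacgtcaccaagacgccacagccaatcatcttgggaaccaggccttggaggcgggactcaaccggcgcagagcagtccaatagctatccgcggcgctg
Mcm6: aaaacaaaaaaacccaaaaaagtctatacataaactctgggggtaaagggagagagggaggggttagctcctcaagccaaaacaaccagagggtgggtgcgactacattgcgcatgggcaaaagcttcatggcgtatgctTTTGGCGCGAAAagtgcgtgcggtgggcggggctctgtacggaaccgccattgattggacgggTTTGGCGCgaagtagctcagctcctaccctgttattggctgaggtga
Rrm1: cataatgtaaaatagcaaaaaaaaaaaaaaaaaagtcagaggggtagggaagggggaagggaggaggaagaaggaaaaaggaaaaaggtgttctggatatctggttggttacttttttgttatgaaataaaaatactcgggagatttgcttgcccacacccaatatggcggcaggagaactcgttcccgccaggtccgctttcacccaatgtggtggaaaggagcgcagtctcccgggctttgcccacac

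Replication genes were then set against 22 mitotic genes, such as Ccnb1, Top2a, Plk1 and Aurkb, which are known to peak in G2 and M. Over all 49 cells the summed CPM of the 2 lists correlated at 0.271, but the classes differed in sign: -0.523 within the 30 erythroid-like cells and 0.513 within the 18 HSC-like cells. Whether these values differ beyond chance was not tested, and the HSC-like value was 0.363 without cells 2, 3, 13 and 38. In the erythroid-like cells the licensing genes ran most clearly against the mitotic list (-0.655), then the fork genes (-0.483), whereas nucleotide supply did so less (-0.239). Single genes were set against the mean rank of the mitotic list in these cells, not against its sum, and varied within each role. The most opposed were Mcm4 at -0.63, Cdt1 at -0.61, Pcna at -0.55 and Mcm6 at -0.54, while the licensing genes Gmnn (-0.10) and Orc6 (-0.04) were near 0. The highest values were those of 3 fork genes, Rfc5 at 0.21, Pola1 at 0.17 and Pold2 at 0.15.

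The extreme erythroid-like cells give the same sums cell by cell, and are no separate support for the correlation of the 2 sums. The 5 with the highest summed replication genes (cells 44, 40, 45, 18 and 4) held 14501 to 19808 CPM of them and 941 to 3822 CPM of mitotic genes. The 5 with the highest mitotic sums (cells 29, 9, 43, 46 and 42) held 6125 to 10076 CPM of mitotic genes and 3669 to 8584 CPM of replication genes. Cell 29 had both the highest mitotic sum of all cells and the lowest replication sum of its class. These 2 sets shared no cell, and sets ranked in this way must then be apart in either sum, so their separation is no result. Sums within 1 cell also share a fixed total of reads.

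**Figure D5:**
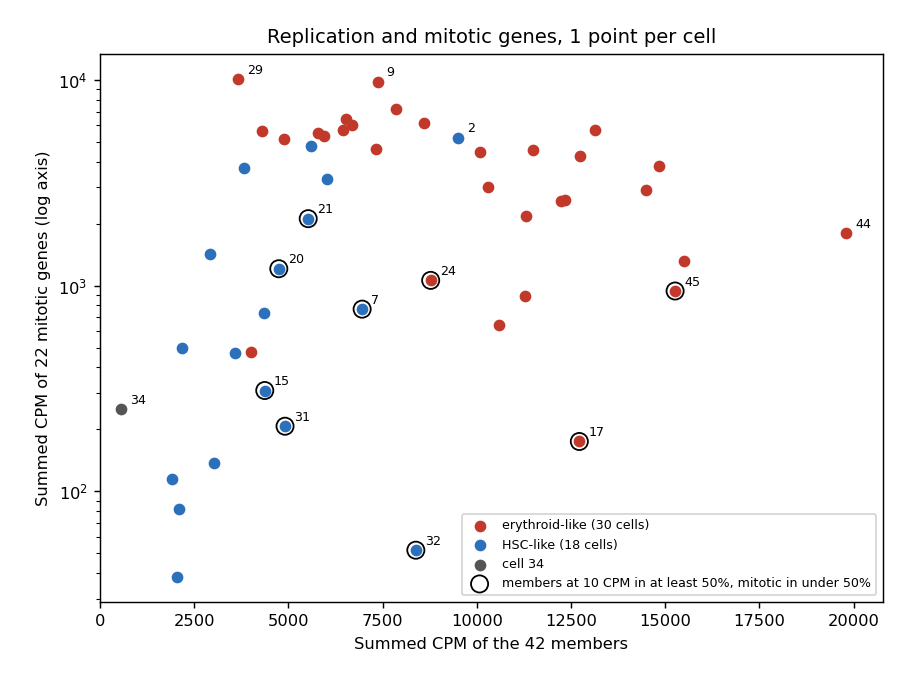
Summed CPM of the 22 mitotic genes (y, log axis) against summed CPM of the 42 replication and nucleotide genes (x), 1 point per cell, coloured by class, with rings around the 9 cells in which at least 50% of the 42 but under 50% of the mitotic genes reached 10 CPM. Among the erythroid-like cells the 5 with the highest replication sums have at most 3822 CPM of mitotic genes, and the ringed cells span 4370 to 15261 CPM on the x axis.

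Cells were sorted by whether at least 50% of each list reached 10 CPM, which means 21 of the 42 and 11 of the 22 genes. Both lists passed in 29 cells (59.2%), of which 25 were erythroid-like and 4 HSC-like (cells 2, 3, 13 and 38). Neither passed in 11 cells, of which 8 were HSC-like, 2 erythroid-like (cells 9 and 50) and 1 was cell 34. Replication genes passed without the mitotic list in 9 cells (18.4%, Clopper-Pearson 95% interval 8.76 to 32.02), and mitotic genes passed without replication genes in 0 of 49, which allows a share of up to 6.12% (taken as 3 of the 49 cells, not as a Clopper-Pearson limit). That 0 hinges on cell 9, with 85519 reads. It had 16 of the 42 genes and 10 of the 22 mitotic genes at 10 CPM, just under the limit of 11, at a mitotic sum of 9752 CPM.

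The 9 cells with replication but few mitotic genes were erythroid-like cells 17, 24 and 45 and HSC-like cells 7, 15, 20, 21, 31 and 32. Cell 17 is the clearest erythroid-like case: 40 of the 42 replication genes reached 10 CPM, with 1496 CPM of Mcm6 and 454 CPM of Rrm2, and the mitotic list summed to 175 CPM. Cell 32 is its HSC-like counterpart, with 29 of the 42 at 10 CPM, 1419 CPM of Mcm2, 1236 CPM of Mcm6 and 0 reads of Rrm2, and a mitotic sum of 51.8 CPM. In cell 31 the nucleotide supply genes summed to only 13.7 CPM beside 2078 CPM of licensing genes. Licensing genes made up a median of 47.02% of the replication CPM in the 9 cells (33.8 to 54.5), 39.3% in the 29 cells with both lists (26.8 to 55.0) and 36.6% in the 11 with neither (2.23 to 56.0), and these ranges overlap.

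In the 3 erythroid-like cells of this kind the medians of Mcm2 to Mcm6, Cdc6 and Cdt1 were higher than in the 25 with both lists. The other licensing genes did not share this, with medians of 598 against 674 CPM for Mcm7, 52.4 against 63.8 for Orc6 and 81.2 against 139 for Gmnn, and Orc1 at a median of 0 in both. Cdt1 had a median of 377 CPM (365 to 594) against 114 (0 to 412), and Mcm6 1496 (391 to 2250) against 805.5 (249 to 1784). Mcm3 stood at 1014 (89.6 to 1346) against 454 CPM (21 to 1210), and Dut at 529 (185 to 572) against 278 CPM (92.7 to 696). Ccne1, the cyclin of S phase entry, had 161 CPM (160 to 277) against 104 (0 to 564), while Ccna2, the cyclin of S and G2, had 53.0 (4.18 to 72.4) against 386 (0 to 712). E2f8, a late E2F repressor, stood at 3.13 (0 to 200) against 137 CPM (0 to 521.05). The genes named were picked after their values were seen, the cells were chosen by counts over the same genes, and all these ranges overlap, so the values are descriptions.

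Which cells fall into this kind depended on the rule. Of the 9 cells, 4 lay within 3 genes of the mitotic limit and 2 within 3 genes of the replication limit. With 1 read in place of 10 CPM there were 8 cells, of which 1 was among the 9, and with the medians of the summed CPM as limits there were 10 cells, of which 5 were shared and 8 were erythroid-like. On thinned cells there were 8, of which 7 were shared, and requiring 75% of the replication genes with under 25% of the mitotic list left 0 cells. Cells 7, 17 and 24 also met the summed and the thinned rule, cell 45 met the summed rule only, and cell 32 met the summed, the thinned and the 1 read rule.

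Beyond the 42 genes, 35 others of the same pathways showed the same direction with looser co-variation. At least 10 CPM was reached in at least 50% of cells by 24 of the 35, where 33.8% of the 15134 genes with a read did so. At least 2-fold higher in the erythroid-like cells were 18, and 0 in the HSC-like cells, where 14.5% and 19.5% of the 9158 filtered genes were. Their median log2 ratio was 1.05. Their mean pairwise correlation was 0.208. Among those that followed the 42 genes best were Tipin of the fork protection complex (0.77) and Dscc1 of an alternative clamp loader (0.72). Pold4 (-0.17), Rrm2b, the reductase subunit that is not tied to S phase (-0.05), and Samhd1, which degrades dNTPs (0.04), followed them least. The means of Pole and Chtf18 rested on cell 9, with 6700 and 6443 CPM, and the count of 18 was not repeated without that cell.

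Regulators of S phase entry ran in either direction. They were not left out of the clustering, so they could help to define the classes. Ccne2 (0.70), E2f8 (0.66), Ccne1 (0.64) and Tfdp1, the partner of E2F proteins (0.59), ran with the 42 genes, while the CDK inhibitors Cdkn1b (-0.36) and Cdkn1a (-0.35) and the G1 cyclin Ccnd2 (-0.22) ran against them. In most cells Cdkn1a was at 0 and Cdkn1b and Ccne2 were under 10 CPM, so the correlations of these genes are uncertain. For Ccnd2 the class means were 187 CPM (erythroid-like) and 525.5 CPM (HSC-like), and for Ccne1 130 and 21.1 CPM. E2f1 itself reached 10 CPM in 21 cells, and E2f4 in 42. Over all filtered genes outside the lists, those whose rank over 49 cells was most like the mean rank of the 42 included Pgp (0.81), Slbp, the histone mRNA binding protein (0.78), Chek1, the replication checkpoint kinase (0.77), Phb2 (0.76), Steap3 (0.76), Uhrf1, which couples DNA methylation to replication (0.76), Nup85 (0.75), Hspd1 (0.75) and Mthfd1, an enzyme of folate metabolism (0.74). Within the erythroid-like cells the values were 0.72 for Pgp, 0.81 for Slbp and 0.86 for Uhrf1, but 0.42 for Phb2. The most opposed were Srgn (-0.72), Zfp260 (-0.70), Arhgdib (-0.67), the stem cell antigen gene Cd34 (-0.67) and Tmsb4x (-0.66), and these weakened to between -0.48 and -0.10 within the erythroid-like cells.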

How the data were processed

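Single cells of 1 group were profiled by Smart-seq2. The authors deposited estimated counts (expected counts) per gene for 28786 identifiers, of which 4.23% of values were not whole. The submitters' processing notes name Trim Galore 0.5.0, Salmon 0.03.1 and the build GRCm38, with no further role. For the transcript set, the strand setting and any filter, nothing is stated in the sources used here. Symbols came from GENCODE M21 (27728 identifiers, 96.3%). Expected counts were rounded and scaled to CPM, which uses no gene length, and levels of different genes were compared per kilobase of the longest principal (APPRIS) transcript. The cell filter left out cells 5, 10 and 12.

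Ward clustering of cells used 10 principal components of the 1000 most variable genes, as log2(CPM + 1), without the 42 genes, the mitotic list and the other replication genes. The mean silhouette was 0.375 with 3 clusters and 0.369 with 2. Clusters were named from marker lists. No doublet caller was run on 52 wells. Named genes were all 42, listed genes, and the 10 most and 5 least similar filtered genes. Some genes this rule names are not reported here. The members and lists were chosen with earlier results of these data known. Alternatives covered the detection minimum, cell filter, depth, size factors, correlation measure and left-out cells. Scripts were tested on simulated data. Versions were Python 3.11.15, numpy 2.4.6, pandas 2.3.3, scipy 1.17.1, scikit-learn 1.9.0, statsmodels 0.14.6 and matplotlib 3.10.9.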

Additional observations from a re-analysis of the deposited data

Results flagged for a closer look

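Left out by the cell filter, 3 cells also carried reads of the 42 genes, used only where an alternative took all 52 cells. Cell 5, with 28.3% mitochondrial reads, held 2698 CPM of them (829 reads, 17 genes at 10 CPM) beside 5748 CPM of mitotic genes. Cell 10, with 39692 reads in all, held 4686 CPM (186 reads), and cell 12, with 32439 reads, held 3329 CPM (108 reads). All 3 sums lie within the range of the kept cells.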

How the results depend on the processing

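The number of the 42 genes at 10 CPM in at least 50% of cells stayed between 38 and 40, and the number at least 2-fold higher in erythroid-like cells between 27 and 31, with 0 higher in HSC-like cells, in every alternative tried. Of the 27 genes, 22 passed 2-fold in every alternative, and 8 others passed in some. By class medians of CPM + 1, Mcm5 (log2 0.65), Orc1 (0.00) and Gins3 (0.21) no longer passed, and neither did Gmnn on thinned cells (0.96) or Tyms without cells 9, 22 and 44 (0.94). The alternatives without cells 9, 22 and 44, without cells 2, 3, 13 and 38 and with depth removed from ranks, and all those for the relation with mitotic genes, were chosen after seeing the data.

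Mean pairwise correlations fell within classes: to 0.274 (erythroid-like) and 0.217 (HSC-like) for all 42 genes, to 0.239 and 0.174 for fork genes, to 0.180 and 0.376 for nucleotide supply, and within the HSC-like cells to 0.353 for licensing and 0.143 for firing. For the 2 chromatin assembly genes the value of 0.137 became 0.250 on thinned cells, 0.254 within the erythroid-like and -0.0485 within the HSC-like cells. The count of cells with replication but few mitotic genes was 0 under the 75% and 25% rule. The erythroid-like correlation of replication with mitotic sums was -0.411 with size factors and -0.417 with mean ranks. The HSC-like one was 0.358 with size factors, 0.738 with mean ranks, 0.662 without the 2 cells farthest from the median and 0.363 without cells 2, 3, 13 and 38. Orc1 had no value without cells 2, 3, 13 and 38, as it had no read in the other HSC-like cells. The causes were not tested. No paired analysis was possible because the labels give 1 group. Genes at 0 in a cell may lie below detection. Median depth was lower in the HSC-like cells (1192450 against 2993790 reads), but cells 9, 22 and 44, which had under 150000 reads, were erythroid-like. On thinned cells a median of 21.5 of the 42 genes had a read in HSC-like cells and 38 in erythroid-like cells. The part of depth in the class differences was not tested.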
